A study of Mus musculus with 12 samples.

Results

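The 10 genes described here encode AP-1 subunits and related immediate early factors: Jun, Junb, Jund, Fos, Fosb, Fosl1, Fosl2, Atf3, Batf and Maff. They were chosen by gene symbol, and all 10 were among the 14533 genes of the count table. RNA was sequenced from scraped frozen dorsal epidermis of 12 untreated C57BL/6 mice, 1 library per mouse. The 6 WT mice carried floxed Pparg on both alleles and no Cre (Pparg flox/flox, K14-Cre -/-), and were 3 females and 3 males aged 8 to 13 weeks. The 6 Pparg-/-epi mice carried the same floxed alleles with 1 copy of Cre under the cytokeratin 14 promoter (Cre+/-), and were 4 females and 2 males, also aged 8 to 13 weeks. That promoter is active in basal keratinocytes, and cells that descend from them inherit the deletion. Scraping of this non-lesional skin also took superficial dermis, whose cells mostly have another origin. By the first part of the mouse names, here called the prefix, WT replicates 3 to 6 share 1 prefix that no Pparg-/-epi mouse has, and only 1 of 6 prefixes occurs in both groups. The study calls the WT mice littermates or sibling controls of Pparg-/-epi mice but does not say which belong together, nor what the prefix stands for. If it marks a litter or breeding pair, that origin and genotype cannot be told apart for most mice. WT mice are named as replicates 1 to 6 and Pparg-/-epi mice as replicates 7 to 12. Total counts ran from 10120840 to 16947632 in WT and from 11272135 to 18851255 in Pparg-/-epi libraries. The RNA integrity number (RIN) was 6.88 ± 1.03 in WT and 7.55 ± 1.07 in Pparg-/-epi mice (SD, n = 6 each), a difference of 0.667 (2-sided exact permutation test, p = 0.31).

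AP-1 is a dimer of basic leucine zipper (bZIP) proteins, in which a JUN subunit pairs with another JUN, a FOS or an ATF family protein and binds short DNA elements. Several of its genes are immediate early genes, whose transcripts appear within minutes of growth factor, cytokine, wounding or stress signals and are quickly degraded. In epidermis, AP-1 subunits are known for their part in keratinocyte proliferation, differentiation and inflammation.

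Pparg, the targeted gene, was measured first. Its level, in counts scaled to library size (CPM), was 0.533 at the lowest, 2.39 at the median and 14.3 at the highest in WT mice, and 1.33, 4.05 and 6.49 in Pparg-/-epi mice. The groups overlapped throughout, and the highest value belonged to WT replicate 2. Between genotypes Pparg differed by -0.10 on the log2 scale (SE 0.71, adjusted p = 0.950), a value of 0.86 without WT replicate 2, 0.08 without Pparg-/-epi replicate 10, 0.03 without Pparg-/-epi replicate 12 and -3.41 with the prefix as a block, which compares WT replicate 2 with Pparg-/-epi replicate 10 alone. Cre excision leaves a shortened transcript and counts were summed over the whole gene, so these values do not check the genotype labels. The tissue label was checked with keratinocyte markers. Of 16 such markers 15 were in the table, Flg not being among them, none was at 0 in any mouse, and Krt10 was the most abundant. Their summed level was 29900 to 62200 CPM in WT and 39400 to 65600 CPM in Pparg-/-epi mice, lowest in WT replicate 2. That sum hides shifts of single markers: Krt14 (0.98) and Ivl (1.00) were higher and Krt15 (-1.74) was lower, each without overlap of the groups, and each stayed altered when any 1 mouse was left out. With only the 2 WT mice outside the shared prefix, Krt14 (0.82, adjusted p = 0.149) and Krt15 (-1.31, adjusted p = 0.08) were not altered. Ivl was (1.03, adjusted p = 0.0266). With the prefix as a block Krt14 was 1.45, Krt15 -0.81 and Ivl 1.38. Krt14 and Krt15 are named after their values were seen.

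Pparg-/-epi replicate 12 had the highest value of the 6 Pparg-/-epi mice for 9 of the 10 members, the exception being Batf. It was the highest for 22.3% of all genes tested. Pparg-/-epi replicate 9 followed it for Fosb, Fosl1, Jun, Atf3 and, by a small margin, Fosl2. The RIN of replicate 12 was 7.1 and that of replicate 9 was 7.7, against 5.7 to 8.6 over the group, and the total counts of replicate 12 were 12411302. Summed markers of replicate 12 lay inside the range of the other Pparg-/-epi mice for 13 of 15 cell type lists, and below it for Langerhans and dendritic cells and for neutrophils. Those of replicate 9 also lay inside for 13 of 15, and above for the sebocyte list and for smooth muscle and pericytes. The sebocyte sum was led by Krt79, which was higher in Pparg-/-epi mice, while 6 of the 8 markers measured were lower. That sum is therefore not a measure of sebocyte content. The log2 fold change of each member is therefore also given without replicate 12, without replicates 9 and 12 together, or both ways, the pair having been chosen after seeing the data.

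Jun and Fosl1 rose in Pparg-/-epi epidermis, and no member fell. A gene is called altered where its absolute log2 fold change was at least 0.6 and its adjusted p was under 0.05. By that rule 2 of the 10 members were altered and both were higher, against 10.2% of all genes altered in either direction and 5.14% altered and higher. Groups did not overlap, with Pparg-/-epi mice higher, for 2 members, Jun and Maff, against 3.95% of all genes. Of the 10 log2 fold changes 9 were positive with a median of 1.00, while 7046 of 14533 genes were positive with a median of -0.01. The number of altered genes, 1476, became 2233 without WT replicate 2 and 905 (6.23%) without Pparg-/-epi replicates 9 and 12. Without those 2 mice only Fosl1 of the 10 members was altered, 8 were positive and the median was 0.28. Without replicate 12 alone, Fosl1 and Jun were altered, 9 members were positive and the median was 0.5. With only the 2 WT mice outside the shared prefix, 386 genes and 0 members were altered, while all 10 members were positive with a median of 0.64. There Fos (2.41), Fosb (3.17), Atf3 (1.61), Junb (0.50), Jund (0.31) and Maff (0.64) lay above their values from all mice, and Fosl1 (2.15), Jun (0.64), Batf (0.63) and Fosl2 (0.03) below. The study itself used edgeR's likelihood ratio test. With that test, and with DESeq2, 5 members were altered (Fos, Fosb, Fosl1, Jun and Batf), against 11.8% and 12.3% of all genes. In a bulk sample, fewer cells of a type and less RNA per cell cannot be told apart, and this holds for each level given here.

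**Figure D1:**
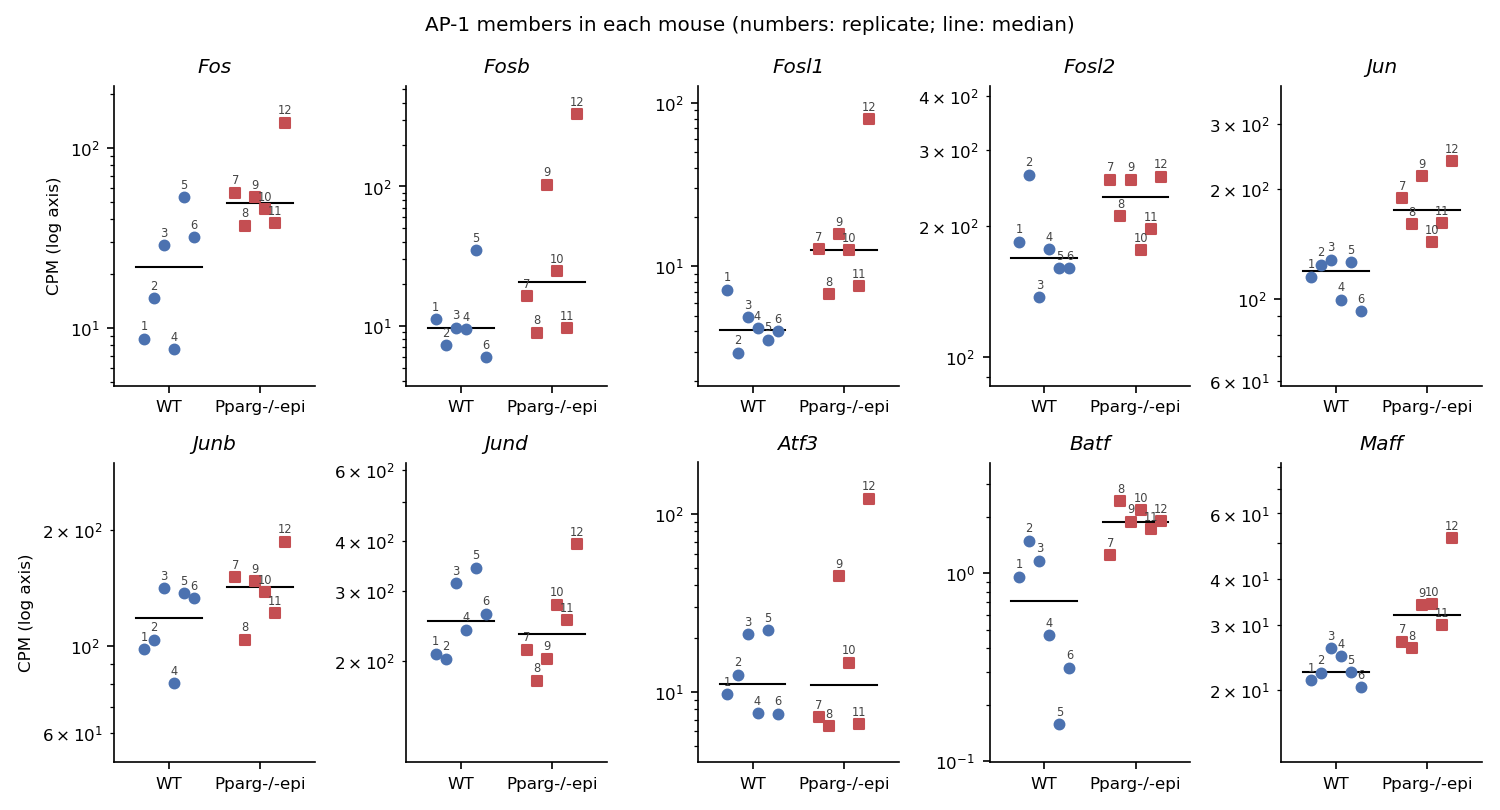
Level of each member in CPM, on a log axis of its own range, in 6 WT (circles) and 6 Pparg-/-epi mice (squares), numbered by replicate, with a line at the median. Jun lies above every WT value in all 6 Pparg-/-epi mice, while the highest Fosb and Atf3 values, 329 and 122 CPM, both belong to replicate 12.

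The promoters of 5 members are shown because these genes include the pairs that varied together across mice and the altered gene Jun. RefSeq promoter sequences (build GRCm38.p6) were matched by symbol for 9 of the 10 members, and Fosl1 is named only. Each line gives the 250 bases before the transcription start of the promoter entry, 5′ to 3′ on the strand of the gene. For Fos that window ends at chr12:85473889, short of the gene start of 85473901 given below. Motif positions are counted from the end of the window. The positions are chr12:85473640-85473889 (+) for Fos, chr8:84978749-84978998 (-) for Junb, chr7:19310046-19310295 (-) for Fosb, chr1:191183334-191183583 (-) for Atf3 and chr4:95052223-95052472 (-) for Jun. Capitals mark the half-site TGACG, which reads CGTCA where it lies on the other strand. In Jun they mark the variant AP-1 element TGACATCA.
Fos: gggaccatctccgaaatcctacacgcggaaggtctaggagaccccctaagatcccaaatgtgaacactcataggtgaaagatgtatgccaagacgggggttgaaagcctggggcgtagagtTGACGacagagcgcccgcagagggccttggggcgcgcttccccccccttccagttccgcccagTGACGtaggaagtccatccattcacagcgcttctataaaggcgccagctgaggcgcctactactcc
Junb: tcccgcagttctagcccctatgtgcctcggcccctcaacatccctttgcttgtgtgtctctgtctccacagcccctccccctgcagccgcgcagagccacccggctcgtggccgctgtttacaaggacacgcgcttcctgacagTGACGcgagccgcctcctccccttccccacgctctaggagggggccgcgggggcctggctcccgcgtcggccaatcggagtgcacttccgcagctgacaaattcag
Fosb: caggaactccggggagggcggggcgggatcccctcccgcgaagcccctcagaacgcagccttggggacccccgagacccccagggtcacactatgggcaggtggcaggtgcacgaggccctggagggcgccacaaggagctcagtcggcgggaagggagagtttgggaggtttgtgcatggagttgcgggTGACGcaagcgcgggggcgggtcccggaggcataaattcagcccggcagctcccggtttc
Atf3: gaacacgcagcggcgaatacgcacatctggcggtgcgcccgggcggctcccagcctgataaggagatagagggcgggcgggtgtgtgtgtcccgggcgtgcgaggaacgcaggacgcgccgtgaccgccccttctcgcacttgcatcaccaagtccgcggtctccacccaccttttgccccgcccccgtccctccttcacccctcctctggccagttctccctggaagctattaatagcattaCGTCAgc
Jun: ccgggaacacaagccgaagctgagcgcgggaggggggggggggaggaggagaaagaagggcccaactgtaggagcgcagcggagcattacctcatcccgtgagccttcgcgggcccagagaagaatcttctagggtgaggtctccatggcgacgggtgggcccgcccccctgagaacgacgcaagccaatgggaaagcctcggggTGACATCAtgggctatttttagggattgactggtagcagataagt

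Motifs were searched on both strands of 11 such windows, 3 for Maff and 1 for each of the other 8 members, and a match is a description of letters only. A member counts if any of its windows matched, which gives Maff more chances, whereas shares of promoters are per window. The AP-1 element TGACTCA was in the window of 0 members and in 4.46% of 32851 promoters. The cAMP response element TGACGTCA was in 1 member, Maff, and in 1.55% of promoters. TGACATCA was in 2 members, Jun and Maff, and in 2.93% of promoters, and in Jun it lay 45 to 38 bases before the start. In Maff these 2 elements lay in different windows. The half-site TGACG, which TGACGTCA contains, was in 6 members (Fos, Fosb, Junb, Atf3, Batf and Maff) and in 17.8% of promoters. Fos held it at 129 to 125 and at 66 to 62 bases before the start, Junb at 106 to 102, Fosb at 60 to 56, and Atf3 at 7 to 3 on the opposite strand. The CArG box, the element of serum response factor, was in the windows of 0 members and 1.47% of promoters. The direct repeat AGGTCANAGGTCA, a PPAR element, was in the windows of 0 members and 0.0335% of promoters. Bases outside these windows were not searched, so a count of 0 does not mean that a gene lacks the element.

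Among the JUN subunits, Jun encodes c-Jun, the founding subunit and a strong activator. Jun (mm10 chr4:95049036-95052222, 1 exon) was at 92.8 CPM in the lowest, 119.5 at the median and 128 in the highest WT mouse, and at 143, 174.5 and 238 in Pparg-/-epi mice. All 6 Pparg-/-epi mice lay above all 6 WT mice, with replicates 12 and 9 the highest. Jun was 1.62-fold higher, a log2 fold change of 0.69 (SE 0.13, adjusted p = 0.00487). Leaving out any 1 of the 12 mice kept Jun altered, at 0.61 to 0.76. Without replicates 9 and 12 together it was 0.51 (adjusted p = 0.0275), under the fold threshold. Over the alternatives other than single mice left out, its adjusted p ranged from 2.81e-05 to 0.737, the call also being lost with the 2 WT mice outside the shared prefix (0.64, adjusted p = 0.136) and with the prefix as a block (0.21, adjusted p = 0.737).

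Junb encodes a JUN subunit that can temper c-Jun activity and whose loss in epidermis is known to cause skin inflammation. Junb ranged from 80.4 to 141 CPM in WT and from 104 to 186 CPM in Pparg-/-epi mice, and its log2 fold change was 0.29 (SE 0.16, adjusted p = 0.260), 0.20 without replicate 12 and 0.14 without replicates 9 and 12. Jund encodes the JUN subunit that is widely and steadily present in resting cells. Jund ranged from 203 to 343 CPM in WT and from 179 to 392 CPM with Cre, and its log2 fold change was -0.05 (SE 0.19, adjusted p = 0.899). The sign of that value turned with several settings, among them 0.04 without WT replicate 5, 0.01 without WT replicate 3 and 0.01 without Pparg-/-epi replicate 8. It was -0.22 without replicate 12 and -0.19 without replicates 9 and 12. In the GENCODE M21 models, 52.6% of Jund exon bases overlap Gm11175 on the opposite strand, against 7.28% for Jun with Junos and 7.52% for Junb with Prdx2. Jund was counted over 2878 bases, against 1668 exon bases in the GENCODE model, so its share is not that of the counted bases. The strand setting of the counting is not given in the sources used here, so reads of such partners cannot be told apart.

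Among the FOS subunits, Fos encodes c-Fos, the classic immediate early partner of c-Jun. Fos (chr12:85473901-85477270) was at 7.60, 21.6 and 53 CPM in the lowest, median and highest WT mouse and at 36.9, 49.4 and 138 CPM in Pparg-/-epi mice. The overlap came from WT replicate 5, since the next WT value, 31.8 CPM, was below the lowest Pparg-/-epi mouse. Fos was not altered, with a log2 fold change of 1.35 (SE 0.50, adjusted p = 0.0922). It was altered without WT replicate 5, with a log2 fold change of 1.75 and adjusted p = 0.0333, and was 0.94 without Pparg-/-epi replicate 12. With RIN in the model it was 1.84 (adjusted p = 0.0413), within a range of 0.0211 to 0.522 over the alternatives.

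Fosb encodes FosB, another inducible FOS subunit. Fosb (chr7:19302696-19310045) was at 5.92, 9.59 and 34.8 CPM in the lowest, median and highest WT mouse and at 8.91, 20.5 and 329 CPM in Pparg-/-epi mice. Replicates 12 and 9, at 329 and 103 CPM, lay above all WT mice, and the other 4 Pparg-/-epi mice lay between 8.91 and 24.7 CPM, within the WT range. Fosb was not altered despite a log2 fold change of 2.65 (SE 0.94, adjusted p = 0.0776), which was 1.32 without replicate 12 and 0.18 without replicates 9 and 12. With sex in the model its adjusted p was 0.0459, within a range of 0.0154 to 0.872 over the alternatives.

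Fosl1 encodes Fra-1, a FOS subunit that lacks the transactivation domain of c-Fos and is known in migrating and wounded epithelium. Fosl1 (chr19:5447698-5455938, + strand) was at 2.97, 4.10 and 7.22 CPM in the lowest, median and highest WT mouse and at 6.79, 12.7 and 79.4 CPM in Pparg-/-epi mice. The groups overlapped by a single pair of mice, WT replicate 1 lying above Pparg-/-epi replicate 8, and replicate 12 lay far above the rest. For Fosl1 the log2 fold change was 2.33 (SE 0.60, adjusted p = 0.0212), and it was 1.31 without replicate 12. Leaving out any 1 of the 12 mice kept Fosl1 altered, as did, at 1.14, leaving out replicates 9 and 12. In the female mice alone it was 1.52 (adjusted p = 0.0533), and its adjusted p ranged from 0.000227 to 0.431 over the alternatives. Of its counted exon bases 1155, or 67.7%, also belong to exons of Ccdc85b on the opposite strand, so Fosl1 counts are uncertain where strand was not used. The level of Ccdc85b was 18.9 ± 4.36 CPM without Cre and 14.3 ± 2.09 CPM with it (SD, n = 6 each), with a log2 fold change of -0.40 (adjusted p = 0.107).

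Fosl2 encodes Fra-2, the related subunit with a known part in epidermal differentiation. Fosl2 ranged from 137 to 263 CPM in WT and from 176 to 260 CPM in Pparg-/-epi mice. Its highest value was in WT replicate 2, above every Pparg-/-epi mouse, and the remaining WT mice reached 184 CPM at most. For Fosl2 the log2 fold change was 0.33 (SE 0.16, adjusted p = 0.184), and it was 0.28 without replicate 12 and 0.21 without replicates 9 and 12. Without WT replicate 2 it was 0.45 with adjusted p = 0.018, under the fold threshold.

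Of the other bZIP members, Atf3 encodes a stress-inducible factor that can repress or activate its targets. Atf3 (chr1:191170297-191183333) was at 7.55, 11.1 and 22.2 CPM in the lowest, median and highest WT mouse and at 6.43, 10.9 and 122 CPM in Pparg-/-epi mice. Replicates 12 and 9, at 122 and 44.7 CPM, were above every WT mouse, while replicates 7, 8 and 11, at 7.23, 6.43 and 6.60 CPM, were below every WT mouse. The log2 fold change of Atf3 was 1.32 (SE 0.75, adjusted p = 0.268), and it was 0.25 without replicate 12 and -0.63 without replicates 9 and 12.

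Batf encodes a factor that pairs with JUN proteins mainly in lymphocytes and dendritic cells. Batf rested on 2 to 28 counts per WT mouse and 19 to 40 counts per Pparg-/-epi mouse, or 0.158 to 1.49 CPM and 1.25 to 2.43 CPM. The overlap was between WT replicate 2 and Pparg-/-epi replicate 7, and Batf was the member for which replicate 12 was not the highest. The log2 fold change of Batf was 1.30 (SE 0.44, adjusted p = 0.0652), and it was altered without WT replicate 2, at 1.62 with adjusted p = 0.0187. It was 1.30 without replicate 12 and 1.29 without replicates 9 and 12. T cell markers, 10 of 10 in the table with Cd3g the most abundant, summed to 85.0 to 189 CPM in WT and 93.4 to 133 CPM in Pparg-/-epi mice. Of these markers 2 were lower, Cd3e (-0.75, adjusted p = 0.0315) and Cd7 (-0.75, adjusted p = 0.0357), both named after their values were seen. Neither was altered without WT replicate 3, 4 or 5 or Pparg-/-epi replicate 7, 8, 9 or 11, nor Cd3e without replicate 12, with adjusted p of up to 0.0767 and 0.0738. Langerhans and dendritic cell markers, 9 of 9 with Cd74 the most abundant, summed to 1380 to 3320 CPM and 1710 to 2030 CPM. Of these 1 was higher, Ccr7 (2.07, adjusted p = 0.00991), also named after its value was seen, at 0.126 to 0.852 CPM in WT and from 1.04 CPM in Pparg-/-epi mice. Ccr7 stayed altered when any 1 mouse was left out, but not without replicates 9 and 12 together (1.85, adjusted p = 0.053). The part of these cells in the Batf values was not tested.

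Maff encodes a small MAF protein without a transactivation domain. Maff was at 20.4, 22.4 and 26 CPM in the lowest, median and highest WT mouse and at 26, 31.9 and 51.5 CPM in Pparg-/-epi mice. The groups did not overlap, but only in the second decimal, and replicate 12 was the highest. The log2 fold change of Maff was 0.56 (SE 0.15, adjusted p = 0.0276), so its fold lay under the threshold of 0.6. It passed without Pparg-/-epi replicate 8 (0.61, adjusted p = 0.0197) and without WT replicate 3 (0.60, adjusted p = 0.0343), and it was 0.40 without replicate 12.

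**Figure D2:**
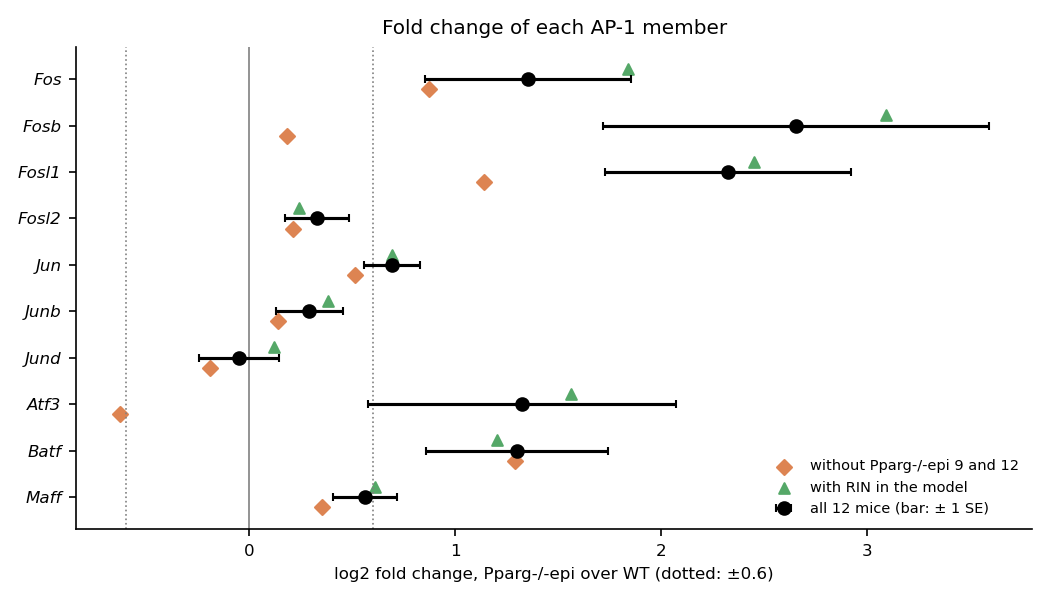
Log2 fold change of each member, Pparg-/-epi over WT, from all 12 mice (circles, bars ± 1 SE), without Pparg-/-epi replicates 9 and 12 (diamonds) and with RIN in the model (triangles), with dotted lines at ±0.6. Without those mice Fosb lies at 0.18 and Atf3 at -0.63, while Jun lies at 0.51.

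Levels of different members were compared per gene length, as RPKM (CPM divided by the length of the gene). In WT mice the order of mean RPKM was Jund 90.9, Junb 62.8, Jun 35.8, Fosl2 30.8, Fos 11.5, Maff 8.80, Atf3 6.82, Fosb 3.45, Fosl1 2.62 and Batf 0.841. The place of Fosl1 in this order is uncertain where strand was not used, since 67.7% of its counted exon bases also belong to Ccdc85b. The same holds for its part in the FOS sums and shares. WT ranges of neighbours in this order overlapped, except between Junb (43.7 to 76.4) and Jun (29.1 to 40.0) and between Fosl1 (1.74 to 4.24) and Batf (0.175 to 1.64). The 3 JUN genes thus had the highest mean RPKM, although Jun was not separated from Fosl2. Summed RPKM of the 3 JUN genes was 190 ± 33.1 in WT and 222 ± 47.5 in Pparg-/-epi mice, and that of the 4 FOS genes 48.4 ± 9.58 and 103 ± 71.4 (SD, n = 6 each). Ranges of the FOS sum overlapped, 38.7 to 64 against 58.7 to 244, the last in replicate 12.

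Shares within each family are descriptions and were not tested. Fosl2 made up 64.8% ± 15.0 of the FOS sum in WT and 45.9% ± 15.3 in Pparg-/-epi mice (SD, n = 6 each). In replicate 12 Fosb was the largest share at 35.7% and Fosl2 held 18.2%. Jun made up 19.2% ± 3.21 of the JUN sum in WT and 26.3% ± 3.83 in Pparg-/-epi mice, and Jund 47.8% ± 3.78 and 39.1% ± 5.23. Both sets of shares overlapped between the groups.

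**Figure D3:**
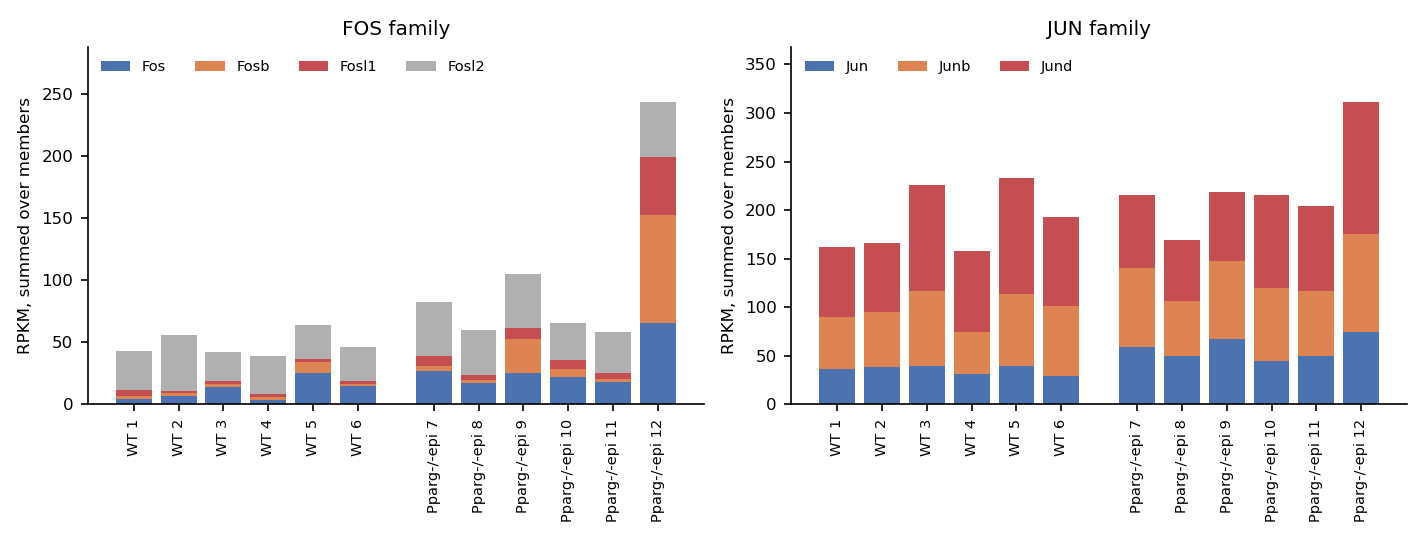
RPKM of the FOS genes (left) and JUN genes (right) in each of the 12 mice, stacked so that bar height is the family sum. The FOS sum is 38.7 to 64 in WT mice and reaches 244 in Pparg-/-epi replicate 12, where Fosb is the largest part.

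The members differed widely in how much they varied between mice of 1 genotype. By the biological coefficient of variation, Fosb stood at the percentile 97.9 of all genes, Atf3 at 96.5, Fosl1 at 92.7 and Fos at 89.3. Jun was at 29.7, the lowest of the 10, and Fosl2, Maff and Junb lay between 40.0 and 42.6. Jun thus had the lowest adjusted p between genotypes and the lowest variation of the 10.

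Members were then compared in pairs across the 12 mice, after the mean of each genotype had been subtracted from log2 CPM. Of 45 pairs, 38 had a positive Pearson r, the median r was 0.531, and 2 pairs had an adjusted p under 0.05. Fos and Junb had r = 0.911 (permutation p = 0.00011, adjusted p = 0.00495) and Spearman's rho = 0.958 (permutation p = 7e-05). Their r was 0.906 without WT replicate 5 and Pparg-/-epi replicate 12, and 0.933 and 0.903 within WT and Pparg-/-epi mice. Fosb and Atf3 had r = 0.943 (permutation p = 0.00062, adjusted p = 0.0139), rho = 0.909 (permutation p = 0.001), and r = 0.882 without the same 2 mice. Within groups this pair had r = 0.649 in WT and 0.993 in Pparg-/-epi mice. Fosl1 and Maff had r = 0.83 (permutation p = 0.0265, adjusted p = 0.0795) and rho = 0.608 (permutation p = 0.055), and r was 0.236 without Pparg-/-epi replicates 8 and 12, so that relation rests on those mice.

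**Figure D4:**
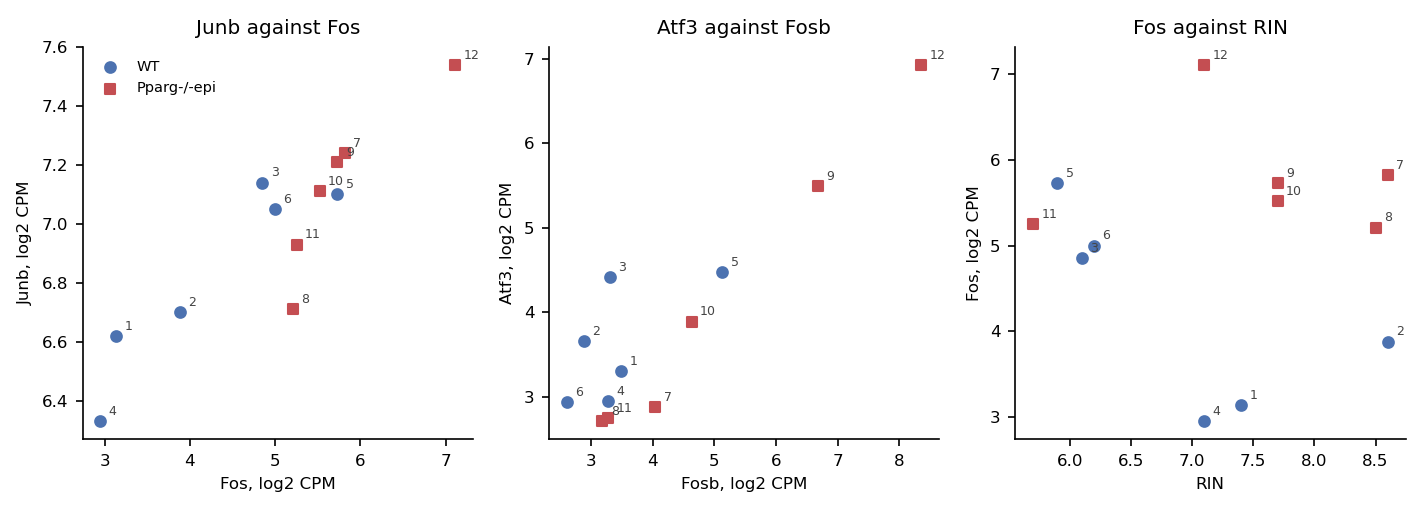
Log2 CPM of Junb against Fos, of Atf3 against Fosb, and of Fos against RIN, in 6 WT (circles) and 6 Pparg-/-epi mice (squares), numbered by replicate and not centred by genotype. Replicate 12 is the highest mouse for all 4 genes, at a RIN of 7.1.

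The genes most like each member, by the same centred values over 12 mice, included other immediate early genes. The closest to Fosb was Nr4a1 (r = 0.952), an orphan nuclear receptor, and the closest to Fos was Dusp1 (r = 0.911), a MAP kinase phosphatase. For Jun the closest was Hbegf (r = 0.919), an EGF receptor ligand. Maff was closest to Mcl1 (r = 0.969), Jund to Nfkbia (r = 0.959), Fosl1 to Papd7 (r = 0.966), Fosl2 to Edem3 (r = 0.939) and Batf to Rcbtb2 (r = 0.84). These are descriptions of 12 mice, with no test.

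RNA integrity was examined because RIN differed among mice. With genotype and RIN in the model, 0 of the 10 members had an adjusted p under 0.05 for RIN in edgeR, against 12.6% of all genes, and 5.42% of all genes were lower at higher RIN. At an unadjusted p under 0.05 there were 5306 genes (36.5%) and 2 members, Jund (-0.24 log2 per RIN unit, adjusted p = 0.0663) and Fosl2 (0.18, adjusted p = 0.0722). The genome-wide count of 1834 was unstable: it was 0 without WT replicate 2, 3, 5 or 6 or Pparg-/-epi replicate 7, 8 or 12. It was 996 without WT replicate 1, 873 without Pparg-/-epi replicate 9, 2833 without replicate 10, with Fosl2 called, and 3503 without replicate 11, with Fos and Jund called. With total-count scaling it was 2208, and 1 member, Fosl2, was called. Within genotypes, 20 relations between RIN and a member were computed after seeing the data, and none had an adjusted p under 0.05. Of the 10 members 7 had a negative r in WT and 7 in Pparg-/-epi mice. The 2 mice farthest from the median RIN were then left out, replicates 7 and 11 in Pparg-/-epi mice and replicates 1 and 2 in WT mice. WT replicate 5 (RIN 5.9) was as far from the WT median of 6.65 as replicate 1 (RIN 7.4), so the WT pair was a choice. Members with a negative r then numbered 6 in WT and 9 in Pparg-/-epi mice, over 4 mice each and with no test. Among them were, in WT, Fos (-0.986) and Junb (-0.977), whose r over all 6 mice was -0.686 and -0.657. In Pparg-/-epi mice they included Junb (-0.992), Maff (-0.968), Atf3 (-0.925), Fosl1 (-0.923), Fosb (-0.922), Jund (-0.892) and Fos (-0.883), which over all 6 mice had r of -0.068, -0.339, -0.129, -0.093, -0.08, -0.486 and -0.044. Of the 4 Pparg-/-epi mice kept, replicate 12 had the lowest RIN (7.1) and the highest level of each of these genes. These r values therefore cannot be told apart from that mouse. The part of RNA integrity in the member values was not tested beyond this. In WT mice Fosl2 had r = 0.936 (exact permutation p = 0.00833, adjusted p = 0.125) with rho = 0.829 (exact permutation p = 0.0583), and r = 0.653 without WT replicates 1 and 2. In the same mice Jund had r = -0.898 (exact permutation p = 0.0125, adjusted p = 0.125) with rho = -1.0 (exact permutation p = 0.00278), and r = -0.865 without those 2 mice.

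Sex was compared likewise. With genotype and sex in the model, 0 members and 2 genes in all (0.0138%) had an adjusted p under 0.05 for sex in edgeR, and at an unadjusted p these were 4 members and 2321 genes (16%). For the genotype by sex interaction there were 0 members and 0 genes (0%) in edgeR, with 0 members and 726 genes at an unadjusted p under 0.05. Replicate 12 was 1 of only 2 Pparg-/-epi males, and the part of sex in its values was not tested apart from that mouse.

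Other immediate early genes were examined next, since several members belong to that class. Of the 44 measured, 10 were higher and 1 was lower in Pparg-/-epi mice, with a median log2 fold change of 0.34, against 10.2% of all genes altered. Those higher included Arc (3.20), a neuronal cytoskeletal immediate early gene, Hbegf (2.29), Nr4a3 (2.16), Ier3 (1.501), the zinc finger factors Egr1 (1.36) and Egr2 (1.29), and the kinase gene Sgk1 (0.97). Npas4, a bHLH-PAS factor, was lower at -2.09, on 1 to 10 counts per Pparg-/-epi mouse. The abundant Klf4, Mcl1, Zfp36l1 and Klf6 were not altered. Klf10 (0.41, adjusted p = 0.0353) and Ier5 (0.31, adjusted p = 0.0272), named after their values were seen, had folds under the threshold. Replicate 12 was the highest Pparg-/-epi mouse for 33 of the 44 (75%), and without replicates 9 and 12 the number altered was 5. With fewer mice in other ways it was 2 in females only and 1 with the 2 WT mice outside the shared prefix. Each gene named here as altered stayed so when any 1 mouse was left out.

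The members were also set beside heat shock and other handling stress genes. Of the 19 measured, 0 were higher and 1 was lower in edgeR, with a median of -0.05, against 10.2% of all genes altered. DESeq2 also altered 1. That gene was Hsf2 (-0.93, adjusted p = 0.0225), a heat shock factor, which was not altered without WT replicate 3 or WT replicate 4 (largest adjusted p = 0.0547). The number altered was 2 without WT replicate 2, 2 without Pparg-/-epi replicate 12, and 0 without replicates 9 and 12 or with the 2 WT mice outside the shared prefix. An adjusted p under 0.05 was reached by 3 of the 19 and by 2222 of all 14533 genes. Of the 3, Hspa8 (0.46, adjusted p = 0.0334) and Hspa5 (0.53, adjusted p = 0.00228) had folds under the threshold, as Maff did. Hspa5, named after its value was seen, did not overlap between the groups. The abundant Hsp90ab1, Hspb1, Hspa8 and Hspb8 were not altered, and 33% of the 75-base stretches of Hspa8 and 46.4% of those of Hspb1 occur in other genes. Replicate 12 was the highest Pparg-/-epi mouse for 14 of the 19 (73.7%). The part of tissue handling in the member values was not tested.

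Other bZIP factors and the upstream kinases were also examined. Of all 14533 genes, 10.2% were altered and 2222 had an adjusted p under 0.05. Of 27 other bZIP genes 1 was altered, Nfe2l3 (0.75), with a median of 0.09, and the abundant Cebpa, Atf4, Nfe2l1 and Cebpb were not. Nfe2l2 had an adjusted p of 0.00785 and no overlap, at a fold under the threshold (0.48). The number altered was 3 without WT replicate 1, 2 without WT replicate 2, with DESeq2 or with age in the model, and 0 with the 2 WT mice outside the shared prefix. Of 24 MAP kinase and serum response factor genes 1 was altered, Elk3 (1.30, adjusted p = 0.0361), an ETS partner of serum response factor. Elk3 was not altered without WT replicate 3, 4, 5 or 6 or Pparg-/-epi replicate 7, 8 or 9, with an adjusted p of up to 0.0863, nor with total-count scaling, sex or age in the model, females only, those 2 WT mice, or without replicates 9 and 12. The abundant Mapk13, Mapk3, Map2k4 and Map2k3 were not altered. An adjusted p under 0.05 was reached by 4 of the 24, the others being Map2k1 (0.50, adjusted p = 0.00519, no overlap), Mapk11 (0.50, adjusted p = 0.0186) and Araf (-0.42, adjusted p = 0.0198), with folds under the threshold. These 3 and Nfe2l2 are named after their values were seen. Of 10 MAP kinase phosphatase genes, whose products switch off the kinases that induce Fos and Jun, 2 were higher, Dusp6 (1.73) and Dusp14 (0.66), while Dusp1, Dusp7 and Dusp16 (-0.57, adjusted p = 0.0476) were not altered. The number altered was 4 without WT replicate 2 and 1 without Pparg-/-epi replicate 11, when Dusp14 was not altered, and it was 1 in females only and 0 with those 2 WT mice.

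Genes with known AP-1 control were the last list. Of the 19 measured, 10 were higher and 1 was lower, with a median of 1.21, against 10.2% of all genes altered. This list was chosen with earlier results of these data known. The study already reports Ivl, Sprr1b, S100a8, S100a9, Ccl2, Timp1 and Vegfa as raised in these mice. The share altered in the list is therefore not to be held against that of all genes. Those higher included Sprr1b (3.65), a cornified envelope precursor, the alarmin genes S100a9 (2.74) and S100a8 (2.74), the chemokine gene Ccl2 (2.48), Vegfa (1.77) and the envelope protein gene Ivl (1.00). Timp1 (1.51) and Nqo1 (1.25) were higher too. They lost the call without WT replicate 3, 4, 5 or 6 or Pparg-/-epi replicate 7, 8 or 9, with adjusted p of up to 0.0827 and 0.0988. Their log2 fold changes were 1.3 to 1.74 and 1.08 to 1.53 with each mouse left out. Mmp9, the gene that was lower (-0.999), is named after its value was seen, and the abundant Lor and Hmox1 were not altered. With the 2 WT mice outside the shared prefix 6 genes of this list were altered. Replicate 12 was the highest Pparg-/-epi mouse for 5 of the 19 (26.3%), unlike its share among the members. These genes have other regulators besides AP-1, and the part of the members in their values was not tested.

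**Figure D5:**
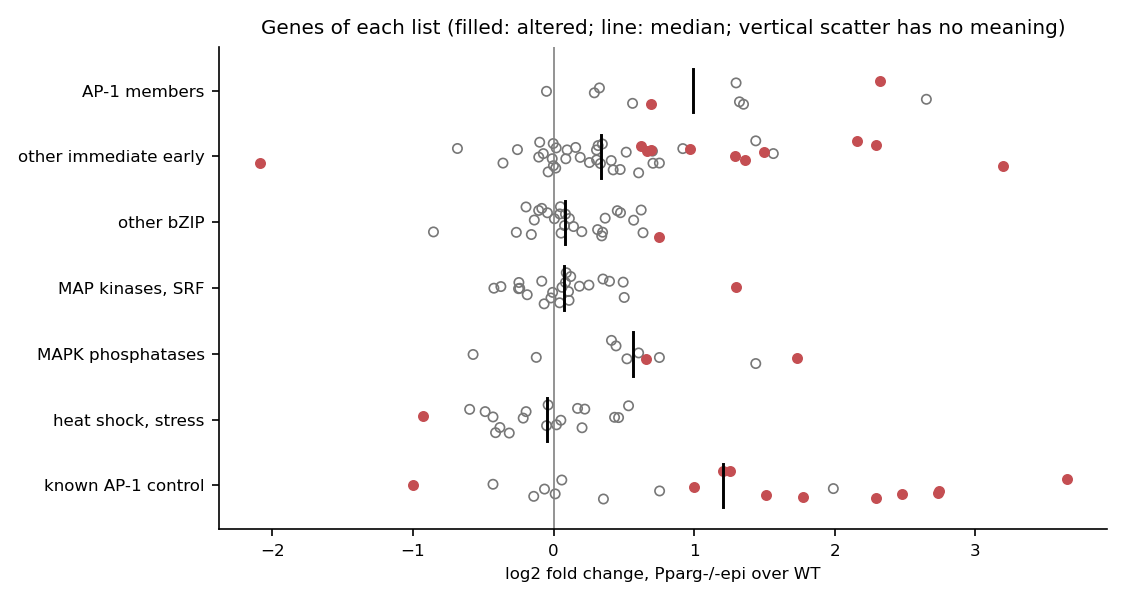
Log2 fold change, Pparg-/-epi over WT, of each gene of the members and of 6 other lists (filled where altered), with a vertical line at the median of each list. The median is 1.00 for the members, 0.34 for other immediate early genes, -0.05 for heat shock genes and 1.21 for genes with known AP-1 control. The lists were chosen with earlier results of these data known.

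Markers of some other cell types moved with genotype as well. No measured marker of fibroblasts, macrophages, hair follicles, smooth muscle and pericytes, skeletal muscle, adipocytes, melanocytes or erythrocytes was altered. Mast cell markers were higher for 7 of 7 genes, with Mcpt4 the most abundant, and summed to 20 to 95.3 CPM in WT and 138 to 250 CPM in Pparg-/-epi mice. Of these markers 1 was at 0 in 5 of the 6 WT mice. Of the 8 sebocyte markers measured, 6 were lower and 1, Krt79, was higher, and the summed level, led by Krt79, was 79.2 to 2370 CPM in WT and 1860 to 3530 CPM in Pparg-/-epi mice. Endothelial markers, 9 of 9 with Pecam1 the most abundant, all had positive log2 fold changes, and summed to 11.3 to 169 CPM in WT and 52.4 to 263 CPM in Pparg-/-epi mice. Of these only Emcn was altered (1.79, adjusted p = 0.0343, and -0.44 with the prefix as a block), but not without WT replicate 3, 4 or 5 or Pparg-/-epi replicate 7, 8, 9 or 11 (adjusted p of up to 0.0804). Neutrophil markers, 3 of 7 with Mmp9 the most abundant, summed to 20.7 to 38.6 CPM and 23.1 to 34.5 CPM. Of these Mmp9 was lower and Cxcr2 was higher (3.55, adjusted p = 0.00715), also with any 1 mouse left out. Cxcr2 was at 0 to 2.88 CPM in WT and 7.57 to 13.9 CPM in Pparg-/-epi mice. It was not altered with only the 2 WT mice outside the shared prefix (2.86, adjusted p = 0.114), and was 6.92 with the prefix as a block. Emcn and Cxcr2 are named after their values were seen. Fibroblast markers, 8 of 8 with Col1a1 the most abundant, reached 34800 CPM in WT replicate 1, and skeletal muscle markers, 7 of 7 with Myh4 the most abundant, 9480 CPM in WT replicate 5. WT replicate 5 was also the highest WT mouse for Fos, Fosb, Jund and Atf3. The part of these cells in the member values was not tested.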

How the data were processed

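Libraries (KAPA mRNA HyperPrep, 2 × 75 bases) were made from 12 mice, and the authors aligned the reads to mm10 with STAR 2.5.2b, dropped reads of low mapping quality or with several positions, and counted the rest with featureCounts (Subread 1.5.1). The deposited values are raw counts per gene. Of 17333 lines 2800 were blank, held 0 counts and were dropped, leaving 14533 genes, each above 0.5 CPM in at least 6 mice. The count columns of Pparg-/-epi replicates 11 and 12 were matched to their labels through the library number and the study's run sheet. The labels' ages were used, although the study's methods give a narrower and lower range of ages for experimental mice. One count was worth 0.0520 to 0.107 CPM.

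Genotypes were compared with edgeR 4.0.16 in R 4.3.3 (quasi-likelihood test, TMM scaling, robust estimation, genotype as the only term), with Benjamini-Hochberg adjustment over 14533 genes. SE is the absolute log2 fold change divided by the square root of F. RPKM used the deposited gene length, and log2 CPM a prior count of 2. Correlations used 100000 permutations, adjusted over 45 pairs. The code was tested on simulated data. Plots used Python 3.11.15 and matplotlib 3.10.9. Named genes were the 10 members, Pparg, for each list its altered genes (at most the 8 with the largest absolute log2 fold change) and its 4 most abundant by RPKM, and the genes most like each member among those with a mean of at least 5 CPM. One gene that this rule names is not reported here. The members and lists were chosen with earlier results of these data known. Alternatives were the likelihood ratio test, DESeq2 1.42.0, RLE or total-count scaling, a mean count of at least 10, RIN, sex or age in the model, females only, the 2 WT mice outside the name prefix that 4 WT mice share and each mouse left out. A fit without robust estimation, one without Pparg-/-epi replicates 9 and 12, one with the prefix as a block, RIN within genotypes, and the count of genes for which a mouse was highest were added after seeing the data.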

Additional observations from a re-analysis of the deposited data

Results flagged for a closer look

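Within each genotype, the highest or lowest mouse was compared with its nearest neighbour relative to the range of the 6 mice, on CPM without a log transform. This was done for the 10 members, Pparg and all 44 genes of the list of other immediate early genes (screened whole after seeing the data), 55 genes in all, and for RIN, age and total counts, which makes 116 groups. A mouse stood apart by Dixon's criterion in 28 groups. Chance gives about 1 in 20 for normally distributed values, and more for skewed ones such as CPM, so 28 is not to be held against that share. Of the 28, 20 were Pparg-/-epi replicate 12, 5 were WT replicate 2 and 3 were WT replicate 5, and none concerned RIN, age or total counts. On log2 CPM, a scale added after seeing the data, 12 of the 110 groups of genes had such a mouse: Pparg-/-epi replicate 12 in 6 (Fos, Fosl1, Dusp1, Zfp36, Zfp36l1 and Mcl1), WT replicate 2 in 3 (Egr2, Rhob and Plk2) and WT replicate 5 in 3 (Fosb, Nr4a1 and Csrnp1). On that scale replicate 12 did not stand apart for Fosb, Atf3 or Maff. These genes vary together, so the groups are not independent.

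By that criterion on CPM, Pparg-/-epi replicate 12 stood apart as the highest Pparg-/-epi mouse for the members Fos (138 CPM), Fosb (329 CPM), Fosl1 (79.4 CPM), Atf3 (122 CPM) and Maff (51.5 CPM). Among other immediate early genes it stood apart for Nr4a1 (97.5 CPM), Nr4a2 (17.6 CPM), Nr4a3 (38.1 CPM), Ier2 (113 CPM), Ier3 (70.9 CPM), Dusp1 (315 CPM), Zfp36 (195 CPM) and Zfp36l1 (331 CPM). The same held for Klf2 (18.1 CPM), Klf6 (436 CPM), Arc (56.9 CPM), Tiparp (91.1 CPM), Errfi1 (230 CPM), Ptgs2 (16.7 CPM) and Mcl1 (640 CPM).

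WT replicate 5 stood apart as the highest WT mouse for Fosb (34.8 CPM), Nr4a1 (19.4 CPM) and Csrnp1 (31.3 CPM). WT replicate 2 stood apart for Fosl2 (263 CPM), Pparg (14.3 CPM), Egr2 (184 CPM), Rhob (70.4 CPM) and Plk2 (53.9 CPM). Each of these mice was the highest of its group for further genes without standing apart. Genes named only here were chosen after their values were seen, and the cause was not tested for any of these values.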

How the results depend on the processing

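Mice could not be paired by replicate number, because WT replicates are numbered 1 to 6 and Pparg-/-epi replicates 7 to 12, so no number is shared. Among name prefixes, only 1 occurs in both groups, in WT replicate 2 and Pparg-/-epi replicate 10. A fit with the prefix as a block, added after seeing the data, therefore takes genotype from these 2 mice alone. It altered 375 genes, 0 members and, of the other lists, 1 gene with known AP-1 control. In it signs turned for Fosl2 (-0.58), Jund (0.45), Egr2 (-0.20), Sgk1 (-0.07), Hsf2 (0.07), Elk3 (-0.69), Nqo1 (-0.06) and Emcn (-0.44, not among the 36 genes counted below), and Pparg moved to -3.41. The number of altered genes, 1476, was 640 in females only, 386 with the 2 WT mice outside the prefix that 4 WT mice share and 905 without Pparg-/-epi replicates 9 and 12 (chosen after seeing the data), all with fewer mice, and 1109 to 2233 with each mouse left out. The number of members altered, 2, was 5 with the likelihood ratio test, 5 with DESeq2, 4 with RIN in the model, 1 in females only, 0 with those 2 WT mice, 1 without replicates 9 and 12, and 2 to 3 with each mouse left out. The number of genes called for RIN, 1834, was 0 to 3503 with each mouse left out, 0 with RIN and sex together and 2208 with total-count scaling. Signs turned for Jund, to 0.12 with RIN, 0.00 with sex and 0.31 with those 2 WT mice (-0.22 to 0.04 with each mouse left out, 0.01 without WT replicate 3 or Pparg-/-epi replicate 8). They turned for Atf3, to -0.63 without replicates 9 and 12, and for Pparg, to 0.35 with age (-0.32 to 0.86 with each mouse left out, 0.08 and 0.03 without Pparg-/-epi replicates 10 and 12). The r of Fosl2 and Junb turned from -0.074 to 0.013 with total-count scaling. The cause was not tested. Of 600 values for the log2 fold changes of 36 genes, 485 kept direction and call, 84 lost the call, 13 gained it and 18 turned sign. Of the members, Batf had the lowest counts.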
